A study of Mus musculus with 2 samples.

Results

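The collagen chains are the 44 genes, of 32285 in the deposited matrices, whose symbol is Col, a number, a and a number. This set was chosen with earlier results of these data known. Whatever their values, all chain genes named in that form were taken. They were followed in mouse aortic cells studied to ask what the leukocyte phosphatase CD45 (Ptprc) does in endothelial cells (EC) during atherosclerosis, where EC can take on mesenchymal features and make interstitial matrix. There were 2 single-cell RNA libraries, 1 per group. The WT library came from mice that lack ApoE, on the C57BL/6 background, fed a Western diet. The EC-iCD45KO library came from mice that also lack ApoE and were fed the same diet, and that carried a tamoxifen-inducible deletion of CD45 meant for EC. Loss of ApoE was therefore shared by both groups, and lipid-driven lesions were the setting of every comparison. The Cre driver, the ages and any pooling of animals are not given in the sources used here. Enzyme digestion of the aortas used collagenases plus Liberase, and cells bound to CD31 beads (CD31, or Pecam1, is an endothelial surface protein) were sequenced. With 1 library per group there was no replicate, no test between groups was possible, and any difference between the preparations cannot be told apart from the genotype. All intervals below are 95% intervals that cover counting error only.

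Collagens are proteins of the extracellular matrix in which 3 chains wind into a triple helix. In the arterial wall, smooth muscle and adventitial fibroblasts make the fibril-forming types I, III and V that carry tensile load, while endothelium and smooth muscle lay down the type IV network of basement membranes together with the multiplexins of types XV and XVIII. Type VIII is a short-chain network collagen of vessels, type VI forms beaded microfibrils, and the fibril-associated collagens (FACIT) decorate the surface of fibrils. In calcifying plaques, smooth-muscle-derived cells can resemble cartilage and express the cartilage types II, IX, X and XI.

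The WT library held 39849 barcodes and 92058043 unique molecular identifiers (UMIs, each marking 1 captured RNA molecule), and the EC-iCD45KO library held 30278 and 88967918. The libraries had 340 barcodes in common, 256 of them among the cells kept. Cells were grouped by non-collagen markers with all collagen genes left out of the clustering, and each group is called X-like. The 7 groups held, in WT and EC-iCD45KO, 3818 and 4039 EC-like, 2119 and 3104 smooth muscle-like, 3339 and 905 modulated smooth muscle-like, 571 and 161 chondrocyte-like, 2083 and 2394 fibroblast-like, 3537 and 9750 macrophage-like and 137 and 566 Schwann-like cells. Clusters that matched no class held 7160 WT cells (20.1%) and 1670 EC-iCD45KO cells (6.41%). The targeted gene, Ptprc, was at 298 CPM (UMIs of a gene per 1000000 UMIs of the class) in WT EC-like cells and 111 in EC-iCD45KO EC-like cells. The B-cell transcript Cd79a moved with it there, from 397 to 24.1 CPM, and its part in the Ptprc difference was not tested. Ptprc was lower in EC-iCD45KO in the other 6 groups as well, for example at 501 and 285 CPM in macrophage-like and 292 and 131 in fibroblast-like cells. It was at 1021 and 823 CPM in T and NK-like cells, and higher in B-like cells, at 753 and 1256. Of their own marker lists, EC-like cells had all 14 genes at 5 CPM or more. Chondrocyte-like cells had 13 of 14 in WT and 12 of 14 in EC-iCD45KO. Smooth muscle-like cells had 11 of 12 and 12 of 12, and the other classes had all of theirs. Those lists had named the clusters, so their detection is no separate support for the names. Lists of other classes were detected too. All 13 macrophage genes reached 5 CPM in each of the 7 groups, and all 15 fibroblast genes in smooth muscle-like cells. B-like cells, which should lack collagen, had 0.00856% of their UMIs from collagen chains in WT and 0.0126% in EC-iCD45KO, and those shares are the background for all levels below.

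Collagen made up very different parts of the RNA of the 7 classes. Chondrocyte-like cells had the highest share in WT, with 1.72% of UMIs from collagen chains, and 1.07% in EC-iCD45KO. Fibroblast-like cells had 0.755% in WT and 1.36% in EC-iCD45KO, so the order of these classes differed between the libraries. Smooth muscle-like cells had 0.527% and 0.513%, and modulated smooth muscle-like cells had 0.340% and 0.593%. Schwann-like cells had 0.254% and 0.250%, EC-like cells 0.164% and 0.205%, and macrophage-like cells 0.0193% and 0.0230%. The macrophage-like shares lay near those of T and NK-like cells, 0.0132% and 0.0169%, whereas every other class stood far above the lymphocytes.

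Of the 44 chains, 26 reached a mean of 50 CPM over both libraries in at least 1 class. A further 13 peaked between 5 and 50 CPM, and 5 stayed under 5 CPM in every class (Col6a4, Col7a1, Col8a2, Col17a1 and Col26a1). Those 5 include the anchoring fibril chain Col7a1 and the hemidesmosomal chain Col17a1, both best known from skin, and at their highest class they had 0.377 to 4.85 CPM. Only 8 chains reached 5 CPM in all 7 classes. Among the 26 abundant chains, 11 were highest in chondrocyte-like, 5 in fibroblast-like, 3 in EC-like, 3 in smooth muscle-like, 3 in Schwann-like and 1 in modulated smooth muscle-like cells, and 0 in macrophage-like cells. A UMI counts a captured molecule once, so levels were set side by side between chains without scaling by transcript length.

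**Figure D1:**
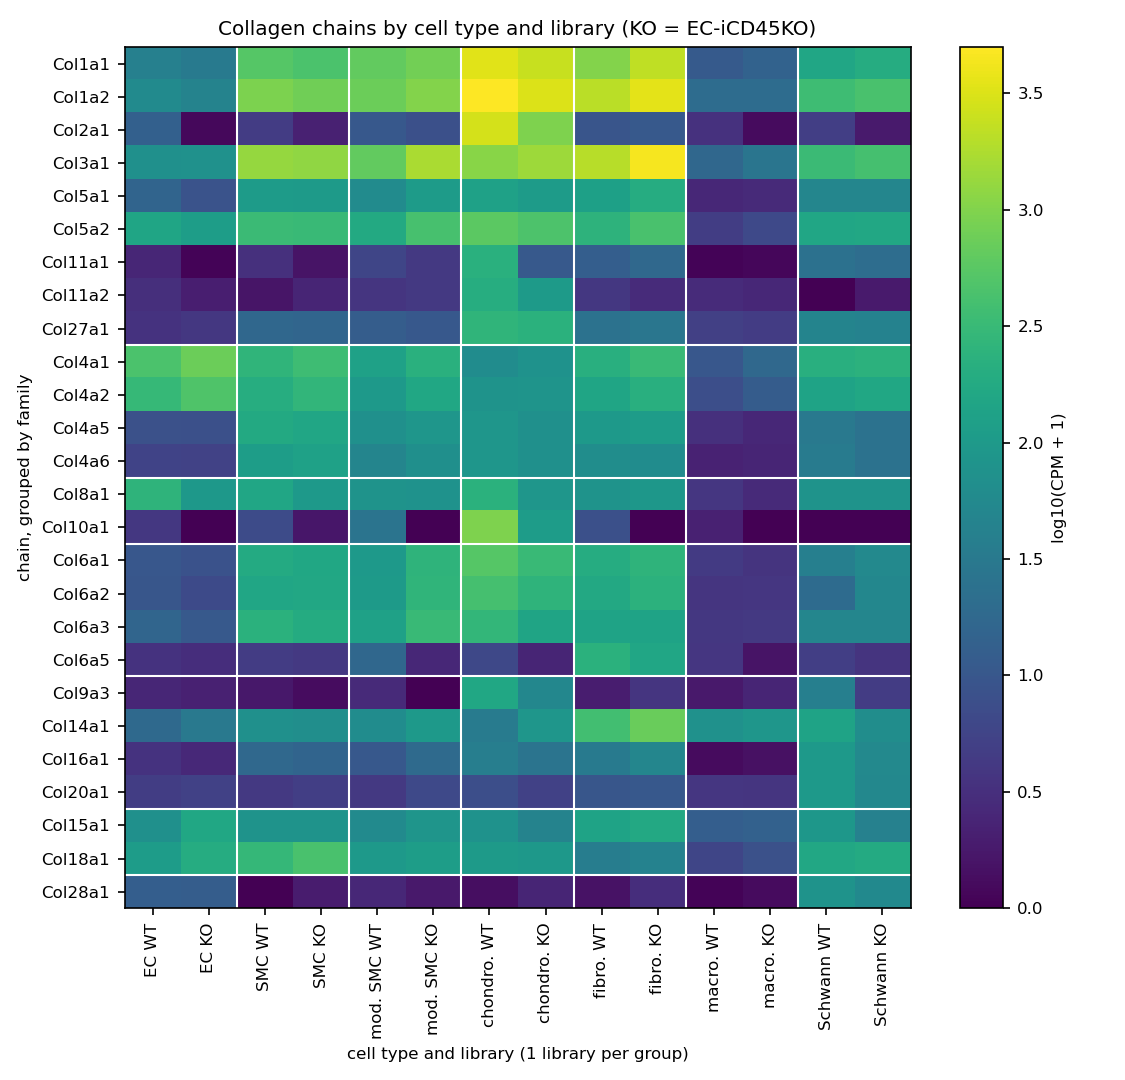
The 26 chains that reach 50 CPM in a class are rows, grouped by family between white lines, and the 7 cell classes in the 2 libraries are columns, with color giving log10(CPM + 1). Col4a1 and Col4a2 lead the EC-like columns, Col1a1, Col1a2 and Col3a1 lead the columns of both smooth muscle classes and of fibroblast-like cells, and Col14a1 is the brightest row of the macrophage-like columns.

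The classes also differed in the make-up of their collagen RNA. In WT EC-like cells, type IV chains gave 46.0% of collagen UMIs and fibril-forming chains 21.5%, and in EC-iCD45KO these shares were 60.0% and 13.5%. Col4a1 alone gave 26.9% and 35.7% of the collagen UMIs of EC-like cells. In every mural and fibroblast-like class the fibril-forming chains were the majority, with 61.4% and 56.8% in smooth muscle-like, 68.4% and 69.3% in modulated smooth muscle-like, 73.0% and 80.5% in fibroblast-like and 80.6% and 84.6% in chondrocyte-like cells. The leading chain was Col3a1 in smooth muscle-like cells (24.5% and 23.8% of collagen UMIs) and Col1a2 in chondrocyte-like cells (29.1% and 29.6%). In fibroblast-like cells it was Col1a2 in WT (27.2%) and Col3a1 in EC-iCD45KO (32.9%). Macrophage-like cells had an unlike profile, in which the FACIT chain Col14a1 gave 38.0% and 37.7% of collagen UMIs.

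**Figure D2:**
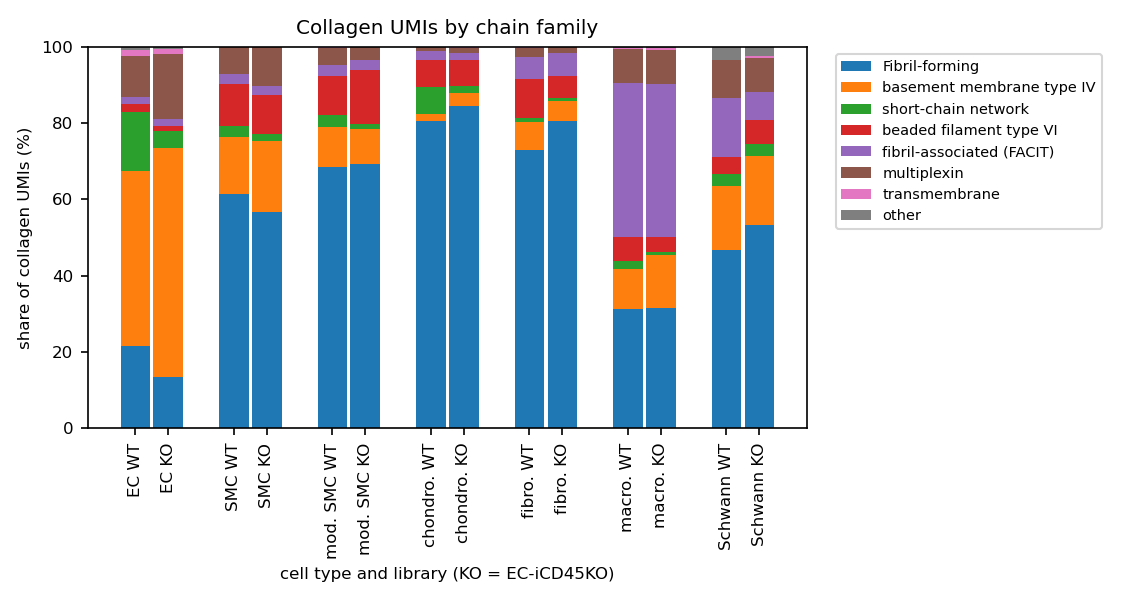
Each bar gives the share of collagen UMIs (percent) held by each chain family in 1 cell class of 1 library. The type IV share of EC-like cells is 46.0% in WT and 60.0% in EC-iCD45KO, while the short-chain share goes from 15.4% to 4.47%; FACIT chains fill 40.4% and 40.1% of the macrophage-like bars.

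Several chains that work in the same trimer lie side by side in the genome, and their RNA was compared as a UMI ratio in each class and library. Gene positions are from GENCODE M21 on GRCm38, which placed all 44 chains on 15 chromosomes. Col4a1 (chromosome 8, 11198423 to 11312826, minus strand) and Col4a2 (11312805 to 11449287, plus strand) start head to head with a 22 bp overlap, and their products form the common type IV trimer. The Col4a1 to Col4a2 UMI ratio lay between 0.775 and 1.54 over the 14 class and library combinations, a span of 1.98-fold. It was 1.49 in WT and 1.51 in EC-iCD45KO EC-like cells, and it was under 1 only in chondrocyte-like cells, at 0.775 and 0.931. The X-linked pair Col4a5 and Col4a6, whose products form a smooth muscle basement membrane trimer, also starts head to head, 1308 bp apart, and had a ratio from 1.0 to 1.82 over 13 combinations. Col6a2 and Col6a1, in the same direction 85161 bp apart on chromosome 10, had the narrowest span, with ratios from 0.764 to 1.07 (1.40-fold, n = 13). The type I chains Col1a2 and Col1a1, which share a trimer but not a chromosome, had ratios from 1.12 to 2.35 (2.09-fold, n = 14). Trimer partners were not always so even: Col6a3, the third chain of the classical type VI trimer, had ratios to Col6a1 from 0.443 to 1.68 (3.78-fold, n = 14), and Col9a3 had ratios to Col9a2 from 3.26 to 26.5 (8.12-fold, n = 3), on as few as 2 Col9a2 UMIs.

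Other neighbours had wider spans. Col3a1 and Col5a2 lie tail to tail, 24614 bp apart on chromosome 1, and encode chains of different fibril collagens. Their UMI ratio ran from 0.476 in WT EC-like cells to 10.2 in EC-iCD45KO fibroblast-like cells, a span of 21.4-fold over 14 combinations. Col4a3 and Col4a4, whose products share a trimer with that of Col4a5, start head to head 71 bp apart, and their ratio spanned 8.66-fold over 10 combinations, from 0.186 to 1.61, at levels of at most 33.7 CPM. The lowest value came from EC-iCD45KO macrophage-like cells on 8 and 43 UMIs, and without it the lowest was 0.351, in WT fibroblast-like cells. The classes of 1 library share its sequencing and free RNA, so these spans describe these libraries only. Of the 44 chain genes, 15 overlap another gene of the matrix (Col18a1 with Slc19a1, Col15a1 with Gm12426, and Col10a1 with Nt5dc1 among them), and whether counting used strand is not given in the sources used here.

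**Figure D3:**
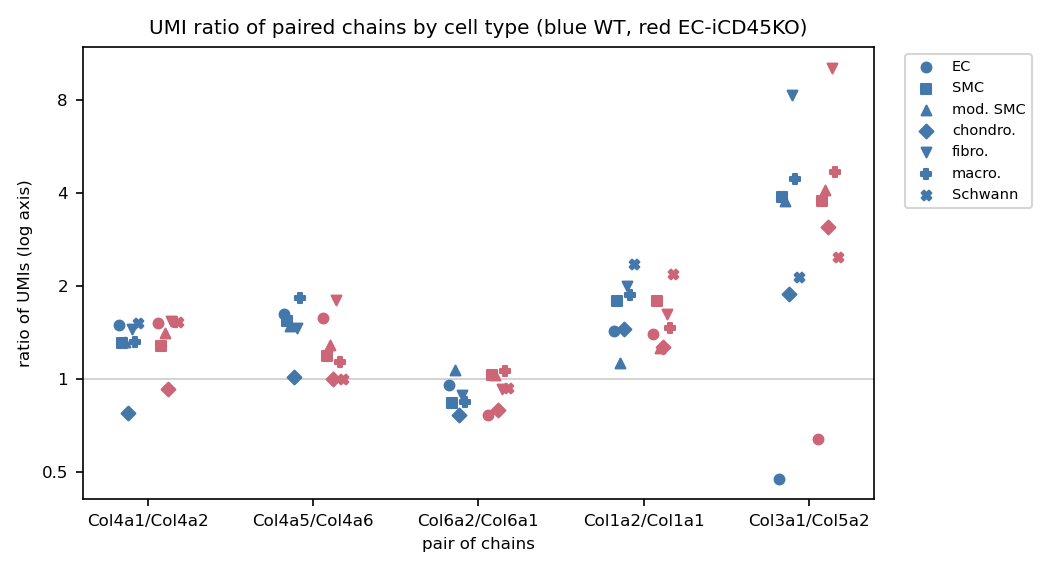
Points give the UMI ratio of 5 chain pairs (log axis) in each cell class, with WT in blue and EC-iCD45KO in red and 1 symbol per class. The Col4a1/Col4a2 points stay between 0.775 and 1.54 and the Col6a2/Col6a1 points between 0.764 and 1.07, while the Col3a1/Col5a2 points spread from 0.476 to 10.2.

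The stretches just upstream of 4 chain genes are shown because 2 of them face each other across the Col4a5 and Col4a6 starts, and because Col8a1 and Col3a1 carry the differences described for EC-like and fibroblast-like cells. They are from RefSeq on GRCm38.p6, read 5′ to 3′ on the gene's strand and end just before the annotated start, except that of Col4a5, which is cut to its first 216 bases. Capitals mark motif matches, searched on both strands. The GC box was spelled GGGCGG and appears as its reverse complement where it lies on the other strand. The CCAAT box was spelled by its name, and the TATA box was spelled TATAAA. None of the 3 motifs contains another. They lie at chrX:141475169-141475384 (plus strand), chrX:141474077-141474326 (minus strand), chr16:57754738-57754987 (minus strand) and chr1:45311288-45311537 (plus strand).
Col4a5: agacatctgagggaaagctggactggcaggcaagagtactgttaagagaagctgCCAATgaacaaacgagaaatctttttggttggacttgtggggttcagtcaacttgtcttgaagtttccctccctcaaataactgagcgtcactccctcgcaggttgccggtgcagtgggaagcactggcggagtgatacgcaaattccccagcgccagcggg
Col4a6: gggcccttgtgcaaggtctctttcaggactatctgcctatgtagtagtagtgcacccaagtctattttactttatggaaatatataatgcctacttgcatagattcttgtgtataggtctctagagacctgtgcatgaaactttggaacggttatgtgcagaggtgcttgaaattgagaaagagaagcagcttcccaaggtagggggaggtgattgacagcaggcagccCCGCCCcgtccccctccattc
Col8a1: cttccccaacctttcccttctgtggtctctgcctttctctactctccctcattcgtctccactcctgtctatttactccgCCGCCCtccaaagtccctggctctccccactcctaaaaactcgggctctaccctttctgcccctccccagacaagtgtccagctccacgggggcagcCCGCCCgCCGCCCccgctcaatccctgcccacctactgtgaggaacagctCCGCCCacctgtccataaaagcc
Col3a1: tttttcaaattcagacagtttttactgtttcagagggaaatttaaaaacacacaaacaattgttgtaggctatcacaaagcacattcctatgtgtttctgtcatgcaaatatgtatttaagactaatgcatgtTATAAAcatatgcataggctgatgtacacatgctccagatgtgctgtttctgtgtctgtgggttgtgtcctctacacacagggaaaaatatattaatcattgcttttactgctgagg
The Col8a1 stretch holds 4 GC boxes, all on the other strand, and has a GC content of 60.8%, whereas the Col3a1 stretch holds 1 TATA box and has a GC content of 35.2%. In 32851 upstream stretches of the same length, the GC box is found in 32.7%, the CCAAT box in 33.8% and the TATA box in 12.4%. In the 38 such stretches of chain genes they are found in 22, 13 and 5. A match describes the letters and is no evidence of a bound factor.

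In EC-like cells, the basement membrane chains Col4a1, Col4a2, Col15a1 and Col18a1 were higher in the EC-iCD45KO library and the short-chain collagen Col8a1 was lower. Col4a1 was at 441 CPM in WT and 732 in EC-iCD45KO, so that its log2 ratio was 0.73 (0.67 to 0.79). Col4a2, its partner in the trimer, was at 296 and 483 CPM (0.71, 0.64 to 0.78). The multiplexin Col15a1 rose from 70.1 to 156 CPM (1.16, 1.02 to 1.30), and Col18a1, the precursor of endostatin, was at 109 and 194 CPM (0.83, 0.71 to 0.94). Col4a5, the other type IV chain with a mean of 5 CPM there, was at 7.34 and 6.91 CPM (-0.09, -0.61 to 0.44), a difference within counting error. As families, type IV differed by 0.71 (0.66 to 0.75) and the multiplexins by 0.97 (0.88 to 1.05) on the log2 scale, while the sum of all chains differed by 0.32 (0.29 to 0.36). The fibril-forming family was lower in EC-iCD45KO, by -0.35 on the log2 scale.

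By the rule used throughout, a chain was called higher or lower when its mean was at least 5 CPM and its 2 levels were at least 2-fold apart. In EC-like cells 19 chains reached the minimum, of which 2 rose (Col13a1 and Col15a1) and 2 fell (Col2a1 and Col8a1). Of all genes at that level in EC-like cells, 1.56% rose and 3.65% fell. The median log2 ratio was -0.29 over the 19 chains and -0.01 over all such genes. Col15a1 stayed past the 2-fold limit under 4 of the 6 alternatives run for single chains, with log2 ratios from 0.97 to 1.19.

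The EC-like class was made of 4 clusters, and the Col4a1 and Col4a2 differences were present in each of them. The cluster led by Rbp7 and Depp1 had Col4a1 at 288 CPM in WT and 446 in EC-iCD45KO (0.63). The cluster led by the capillary gene Gpihbp1 and by Ccdc85a had the highest Col4a1 levels, 945 and 1192 CPM (0.34), and held 48.6% and 52.9% of the Col4a1 UMIs of the class. The cluster led by the venous genes Ackr1 and Selp had 398 and 787 CPM (0.98). The cluster led by Sfrp1 and Tmem158, which also had the arterial genes Gja5 and Bmx among its leading genes, had 235 and 333 CPM (0.50). Thus Col4a1 was higher in EC-iCD45KO in 4 of 4 clusters, and Col4a2 followed it with log2 ratios of 0.62, 0.39, 0.69 and 0.48 in the same order.

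The multiplexins were less even across the clusters. Col15a1 was at 31.1 and 90.5 CPM in the Rbp7 cluster (1.54), 112 and 142 in the Gpihbp1 cluster (0.35), and 191 and 428 in the Ackr1 cluster (1.16). In the Sfrp1 cluster Col15a1 was scarce, at 11.2 and 17.9 CPM (0.68, -0.19 to 1.55), a difference within counting error. Col18a1 rose in 3 clusters, with log2 ratios of 1.40, 1.17 and 1.26, and was at 214 and 250 CPM in the Sfrp1 cluster (0.22, 0.02 to 0.42). Summed over all chains, the Rbp7, Gpihbp1 and Ackr1 clusters were higher in EC-iCD45KO by 0.58, 0.34 and 0.53, and the Sfrp1 cluster had 2431 and 2422 CPM (-0.01).

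**Figure D4:**
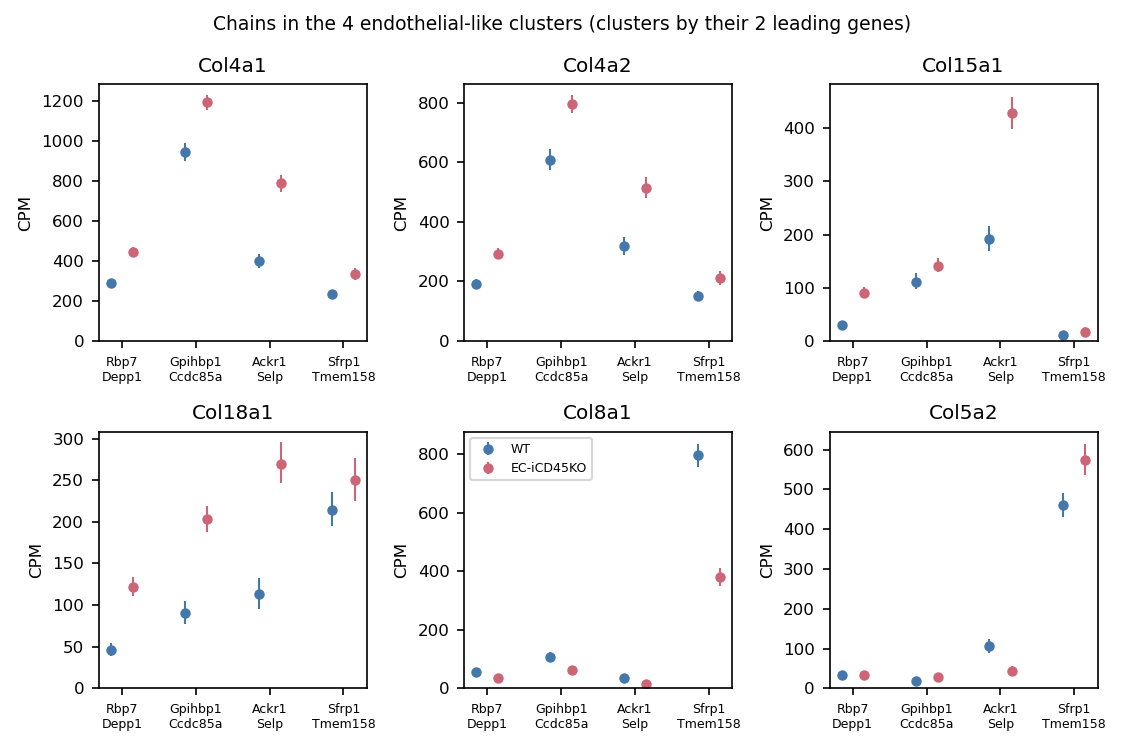
CPM of 6 chains in the 4 EC-like clusters, named by their 2 leading genes, with WT in blue, EC-iCD45KO in red and exact Poisson 95% intervals as bars. Col4a1 and Col4a2 are higher in EC-iCD45KO in all 4 clusters, Col8a1 is lower in all 4 and is concentrated in the Sfrp1 cluster, where Col5a2 is also highest.

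Col8a1, which forms hexagonal networks under endothelium, had the lowest ratio of the chains with a mean of 50 CPM in EC-like cells. It fell from 250 to 91.7 CPM on 2043 and 903 UMIs, and the log2 ratio was -1.45 (-1.56 to -1.33). The Sfrp1 cluster held 79.7% of the Col8a1 UMIs of WT EC-like cells and 60.9% of those of EC-iCD45KO. Within that cluster Col8a1 fell from 795 to 379 CPM (-1.07, -1.21 to -0.93). It was also lower in the other clusters, at 56.1 and 36.8 CPM in the Rbp7 cluster (-0.61), 108 and 63.2 in the Gpihbp1 cluster (-0.78) and 35.8 and 13.7 in the Ackr1 cluster (-1.39). The cluster's own share of EC-like cells was 23.4% in WT and 13.4% in EC-iCD45KO. The class value therefore held both a lower level in each cluster and a smaller Sfrp1 cluster, and with equal weight for each cluster it was -1.01. Under the 6 alternatives run for single chains, Col8a1 in EC-like cells stayed past the 2-fold limit, between -1.63 and -1.01.

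Col5a2 and Col23a1 shared this cluster but not the difference. Col5a2, a regulator of fibril diameter, was at 148 and 114 CPM in the class (-0.38, -0.50 to -0.26), and the Sfrp1 cluster held 77.7% and 74.3% of its UMIs. Inside that cluster it was at 460 CPM in WT and 575 in EC-iCD45KO (0.32), so the sign was opposite to that of the class. Col23a1, a transmembrane collagen, was at 79.1 and 78.7 CPM in the Sfrp1 cluster, which held 91.0% and 87.7% of its EC-like UMIs, and at 21.8 and 13.2 CPM in the class.

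Shares of cells gave the same directions. After thinning each cell to 1000 UMIs, 27.5% of WT and 36.2% of EC-iCD45KO EC-like cells had a Col4a1 UMI, against 0.487% and 0.645% of B-like cells. The median depth before thinning of the cells kept was 1872 and 1963 UMIs for EC-like and 2078 and 2702 for B-like cells, and 1217 WT and 1506 EC-iCD45KO EC-like cells were too shallow to enter. Without thinning the Col4a1 shares were 36.1% and 44.4% in EC-like cells. A Col8a1 UMI was found in 13.5% and 5.80% of thinned EC-like cells (16.3% and 9.48% without thinning), against 0.150% in WT B-like cells and 0 of 310 in EC-iCD45KO B-like cells, which allows up to 1.18%.

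The interstitial chains, characteristic of matrix-producing mesenchymal cells, were low in EC-like cells. In the class as a whole, none of the type I, III, V or VI chains was higher in EC-iCD45KO beyond counting error. Col1a1 was at 39.9 CPM in WT and 31.2 in EC-iCD45KO (-0.36, -0.59 to -0.13), against 1023 and 2196 CPM in fibroblast-like cells. Col1a2 was at 57.2 and 43.5 CPM (-0.39, -0.59 to -0.20), and its log2 ratio was -1.09, past the limit, in cells of at least 3000 UMIs. Col3a1 was at 70.6 and 73.0 CPM (0.05, -0.11 to 0.21). Type VI chains were lower too, with Col6a1 at 9.06 and 7.42 CPM (-0.29, -0.78 to 0.20), Col6a2 at 8.69 and 5.69 CPM and Col6a3 at 15.2 and 9.95 CPM. The type V chain Col5a1 was at 14.6 and 7.92 CPM (-0.88, -1.31 to -0.45). Over the 6 alternatives run for single chains, Col3a1 ran from -0.38 to 0.28 and Col5a2, given above, from -0.58 to 0.15. Both were highest with equal cluster weights, and within the Sfrp1 cluster Col5a2 was higher in EC-iCD45KO. The fibroblast proteoglycan Dcn, which can come from other cells' RNA, was also lower in EC-like cells, at 311 and 238 CPM. Under the finer clustering (Leiden resolution 2) the class held 2912 WT and 3941 EC-iCD45KO cells. An unnamed cluster there, nearest to the B-cell list and then the endothelial list, held 852 and 34. Of the other marker lists summed in EC-like cells, 13 macrophage genes were at 4759.6 and 7389 CPM. Lower were 7 B-cell genes (933 and 69.2) and 14 chondrocyte genes (823 and 477). So were 7 lymphatic endothelial genes (389 and 69.3) and 10 T and NK genes (352 and 55.7). The part of such RNA in these values was not tested.

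Chains of low level gave the remaining calls in EC-like cells. Col13a1, a transmembrane collagen of cell adhesions, rose from 2.45 to 10.7 CPM (2.12, 1.42 to 2.89) on 20 and 105 UMIs. The FACIT chain Col14a1 was at 17.6 and 30.7 CPM (0.80, 0.51 to 1.10). Col2a1, the main fibril chain of cartilage, fell from 12.5 to 0.203 CPM (-5.94, -9.01 to -4.05) on 102 and 2 UMIs. The bone and cartilage transcript Ibsp moved the same way in EC-like cells, from 61.1 to 2.95 CPM. For every 100 Ibsp UMIs there were 20.4 Col2a1 UMIs in WT EC-like cells and 12.7 in WT chondrocyte-like cells, and 6.90 and 7.88 in EC-iCD45KO. The same number was 3.11, 1.52 and 1.90 in WT smooth muscle-like, modulated smooth muscle-like and fibroblast-like cells. It was 14.02, 180 (on 5 Ibsp UMIs) and 52.7 in those of EC-iCD45KO. In macrophage-like cells it was 13.3 in WT and 7.28 in EC-iCD45KO, near the chondrocyte-like values. The classes thus did not all share 1 ratio. The part of cartilage RNA from other cells in the Col2a1 value was not tested.

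Smooth muscle-like cells, named by contractile genes such as Myh11, had nearly the same summed collagen in both libraries, 5266 and 5132 CPM. The class also held much RNA of modulated smooth muscle genes, given below. Col18a1, Col4a1 and Col4a2 were again higher in EC-iCD45KO. The log2 ratio of the sum, -0.04 (-0.06 to -0.02), became positive under 4 alternatives. Col18a1 was at 292 and 435 CPM (0.57, 0.50 to 0.65). Col4a1 was at 263 and 350 CPM (0.41, 0.34 to 0.49) and Col4a2 at 200.4 and 274 CPM (0.45, 0.37 to 0.54). Both clusters of the class had these differences, with 0.43 and 0.44 for Col4a1 and 0.43 and 0.66 for Col18a1. The smooth muscle type IV chains Col4a5 (175 and 154 CPM, -0.18) and Col4a6 (114 and 130 CPM, 0.19) differed little. Under the finer clustering, however, Col4a6 was at 97.2 and 145 CPM (0.58, 0.42 to 0.74), and Col4a5 had -0.09.

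The fibril chains of smooth muscle-like cells were level or slightly lower in EC-iCD45KO. Col3a1 was at 1288 and 1221 CPM (-0.08, -0.11 to -0.04), Col1a2 at 947 and 798 CPM (-0.25) and Col1a1 at 531 and 445 CPM (-0.25). The type V chains were level, with Col5a2 at 331 and 324 CPM and Col5a1 at 106 and 103 CPM. Col8a1 was at 153 and 99.7 CPM (-0.62, -0.74 to -0.51), and its ratio was -1.28 in the larger cluster and -0.42 in the other. Col6a3 was at 233 and 187 CPM (-0.32), but 0.71 under the finer clustering. There Col6a2 went from 0.11 to 0.70 and Col15a1 from 0.02 to 0.61. The FACIT chain Col12a1 was at 34.9 and 22.2 CPM (-0.65).

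Of the 23 chains with 5 CPM in smooth muscle-like cells, 1 rose and 0 fell. The median log2 ratio was -0.08 over the chains and -0.07 over all genes of that level, of which 1.94% rose and 3.15% fell. The chain that rose was Col19a1, a FACIT chain of basement membrane zones, from 9.67 to 22.4 CPM (1.21, 0.84 to 1.60) on 77 and 277 UMIs. Under the finer clustering it was at 17.3 and 29.3 CPM (0.76, 0.38 to 1.15), no longer past the limit. The B-cell transcript Cd79a was at 197 CPM in WT and 16.2 in EC-iCD45KO in this class, and Ibsp at 113 and 8.67. The contractile genes that named the class were higher in EC-iCD45KO, with Myh11 at 798 and 1452 CPM and Acta2 at 7208 and 11630 CPM. The summed levels of 6 pericyte genes (918 and 1723 CPM) and of 13 macrophage genes (1920.4 and 4647 CPM) were higher too. Those of 15 fibroblast genes were lower (10690 and 7310.5 CPM). The 9 modulated smooth muscle genes summed to 19187.7 CPM in WT and 16989 in EC-iCD45KO. In modulated smooth muscle-like cells that sum was 12809.7 and 23383 CPM, so in WT it was higher in the smooth muscle-like class. The part of these shifts in the chain values of smooth muscle-like cells was not tested.

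Fibroblast-like cells had more fibril-forming collagen in EC-iCD45KO, with a family log2 ratio of 0.99 (0.97 to 1.02) and a sum of all chains of 7553 and 13649 CPM (0.85, 0.83 to 0.87). Col3a1, the homotrimeric fibril chain of distensible tissues, rose from 2001 to 4493 CPM (1.17, 1.13 to 1.20). Col1a1 rose from 1023 to 2196 CPM (1.10, 1.05 to 1.15), and its partner Col1a2 was at 2053 and 3572 CPM (0.80, 0.76 to 0.84). The type V chains that nucleate these fibrils were higher too, with Col5a2 at 241 and 440 CPM (0.87), Col5a1 at 126 and 191 CPM (0.60) and Col5a3 at 20.9 and 35.7 CPM (0.77). The FACIT chain Col14a1, which binds fibril surfaces, was at 385 and 726 CPM (0.92, 0.83 to 1.0).

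The FACIT family of the fibroblast-like cells differed by 0.85 (0.77 to 0.92) on the log2 scale, near the sum of all chains. The type IV, multiplexin, short-chain and type VI families differed less. The transmembrane chains (-0.43, -1.02 to 0.17) and those of no listed family (1.75, -0.07 to 4.18, on 3 and 15 UMIs) were within counting error. Type IV differed by 0.41 (0.34 to 0.49), the multiplexins by 0.26 (0.13 to 0.40) and the short-chain family by 0.09 (-0.11 to 0.28). The type VI family differed by 0.09 (0.02 to 0.15), with Col6a1 at 194 and 256 CPM, Col6a2 at 171 and 238 CPM and Col6a3 at 137 and 141 CPM. Col6a5, which can stand in for Col6a3 in the type VI trimer, was lower, at 229 and 154 CPM (-0.58, -0.71 to -0.44), as was Col6a6, at 32.7 and 21.4 CPM (-0.61). Col4a1 was at 218 and 326 CPM (0.58) and Col4a2 at 150 and 212 CPM (0.50). Col15a1 (141 and 170 CPM), Col8a1 (78.3 and 89.1 CPM) and Col16a1 (32.2 and 49.1 CPM) were within 0.61 of level. Col12a1, a FACIT chain like Col14a1, fell from 16.2 to 7.90 CPM (-1.04, -1.61 to -0.47) on 65 and 47 UMIs.

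Of 28 chains with 5 CPM in fibroblast-like cells, 2 rose (Col1a1 and Col3a1) and 1 fell (Col12a1). Over all genes of that level 1.73% rose and 4.53% fell. The chain median was 0.31 and that of all genes -0.05. Both clusters of the class carried the difference: in the cluster led by Clec3b and C7 the log2 ratios of Col1a1 and Col3a1 were 1.01 and 0.94, and in that led by Sfrp4 and Fbln1 they were 0.99 and 1.05. Under the finer clustering the values were not even. A group led by Saa3 and Chl1, with 135 WT and 887 EC-iCD45KO cells, had 0.21 for Col1a1 and -0.06 for Col3a1, and the largest WT group, with 1453 and 863 cells, had 0.28 and 0.40. Over the 6 alternatives run for single chains, Col1a1 ran from 0.87 to 1.18 and Col3a1 from 0.97 to 1.24, and the lowest values, in cells of at least 3000 UMIs, were under the 2-fold limit.

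After thinning to 1000 UMIs, 40.0% of WT and 59.0% of EC-iCD45KO fibroblast-like cells had a Col1a1 UMI, and 53.5% and 72.2% had a Col3a1 UMI. The same shares in B-like cells were 0.861% and 1.94% for Col1a1 and 1.37% and 2.26% for Col3a1, at median depths of 2078 and 2702 UMIs against 1634 and 1792 in the fibroblast-like cells. Without thinning the fibroblast-like shares were 46.6% and 63.1% for Col1a1 and 56.2% and 72.4% for Col3a1. Cd79a in the class was at 433 CPM in WT and 29.8 in EC-iCD45KO and Ibsp at 446 and 18.5 CPM, both lower where collagen was higher. The summed level of 13 macrophage genes was 4656 and 7016 CPM there, and the part of such RNA in the result was not tested.

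**Figure D5:**
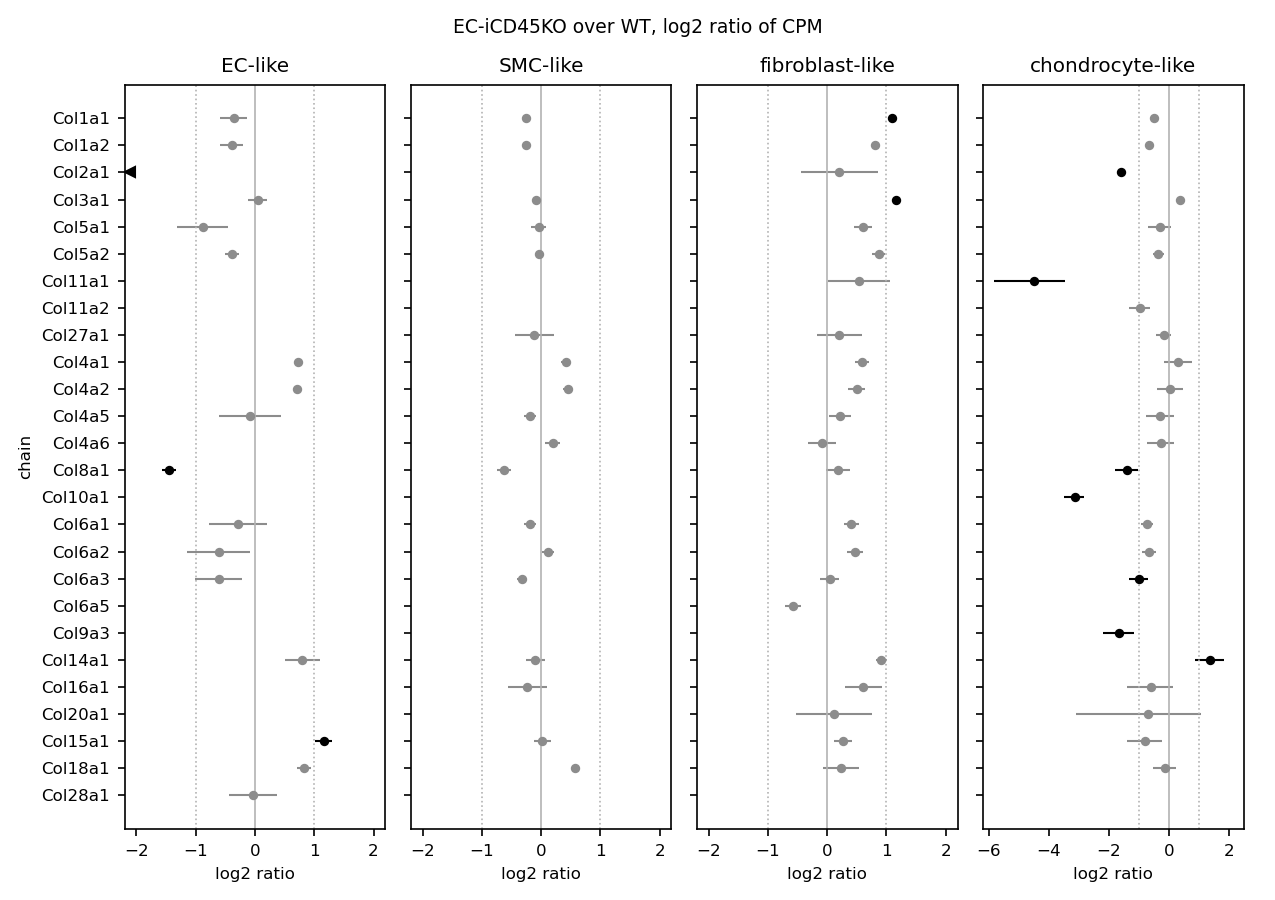
Log2 ratios of CPM, EC-iCD45KO over WT, for the 26 abundant chains in 4 cell classes, drawn where the chain mean is at least 5 CPM, with exact 95% counting intervals. Black points are at least 2-fold apart (dotted lines), grey points are not, and the triangle marks Col2a1 in EC-like cells, off the axis at -5.94; the Col4a1 and Col4a2 points lie right of 0 in EC-like cells and the cartilage chains left of 0 in chondrocyte-like cells.

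Modulated smooth muscle-like cells, a class of a single cluster with markers of smooth muscle cells that have lost contractile identity in plaques, had type III, V and VI chains higher in EC-iCD45KO. Col3a1 rose from 655 to 1714 CPM (1.39, 1.31 to 1.47) and Col5a2 from 174 to 417 CPM (1.26, 1.10 to 1.42). The 3 chains of the classical type VI trimer rose alike, Col6a1 from 95.7 to 256 CPM (1.42), Col6a2 from 102 to 263 CPM (1.36) and Col6a3 from 130 to 324 CPM (1.32). Col4a1 was higher as well, at 131 and 221 CPM (0.76), as were Col4a2, at 98.9 and 157 CPM (0.67), and Col5a1, at 59.1 and 105 CPM (0.82). Type I differed less, with Col1a1 at 656 and 809 CPM (0.30) and Col1a2 at 737 and 1020 CPM (0.47). The sum of all chains was 3397 and 5927 CPM (0.80, 0.76 to 0.84).

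These values changed with how the class was drawn. Under the finer clustering it held 667 and 330 cells in place of 3339 and 905. At that resolution an unnamed cluster, led by Glycam1, Lyz1 and Mmp13 and nearest to the B-cell and modulated smooth muscle lists, held 2603 WT and 84 EC-iCD45KO cells, and another, led by Slurp1 and Cenpf and nearest to the proliferating list, held 131 and 489. There Col3a1 was at 1786 and 2737 CPM (0.62), Col5a2 had 0.46, Col6a1 0.37, Col6a2 0.42, Col6a3 -0.02, Col4a1 0.22, Col4a2 0.16 and Col5a1 0.16, and the sum had 0.29. In cells of at least 3000 UMIs, in contrast, Col4a1 was past the limit, at 1.35. In the class as first drawn, the WT cells had 613 CPM of the B-cell transcript Cd79a and 630 CPM of Ibsp, and the EC-iCD45KO cells 36.1 and 3.93 CPM. The 9 marker genes of the class itself summed to 12809.7 and 23383 CPM, 13 macrophage genes to 6447 and 9524 and 5 proliferation genes to 108 and 374. The part of such RNA in the chain values was not tested.

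Of 26 chains with 5 CPM in modulated smooth muscle-like cells, 7 rose and 3 fell, with a median of 0.52. Over all genes of that level 4.32% rose and 9.84% fell, with a median of -0.06. Besides those named, Col5a3 rose from 6.25 to 16.5 CPM (1.40) and Col22a1, a FACIT chain of tissue junctions, from 0.893 to 9.43 CPM on 4 and 12 UMIs. Col6a5 fell from 16.1 to 1.57 CPM on 72 and 2 UMIs (-3.35, -6.43 to -1.45), and Col4a3 from 7.36 to 3.14 CPM on 33 and 4 UMIs. Col10a1 had 116 UMIs in WT (25.9 CPM) and 0 in EC-iCD45KO, so it was at least 11.0-fold lower against a floor of 3 UMIs in that library. Col10a1 thus moved in this class with Ibsp. Under the finer clustering Col6a5 was instead higher in EC-iCD45KO, at 3.24 and 7.86 CPM (1.28, 0.28 to 2.34), and Col10a1 was at 9.03 and 1.89 CPM (-2.26, -3.79 to -1.01). There Col5a3 had 0.01, Col4a3 0.06 and Col22a1 0.70 (-1.27 to 2.76), all within counting error.

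Chondrocyte-like cells, led by Ibsp, Chad, Bglap, Bglap2, Ecrg4, Omd and Acan in that order, expressed cartilage and type I chains together. No bone cell class was among the marker lists, so the name does not set them apart from bone-like cells. In WT, Col1a2 was at 5006 CPM, Col1a1 at 3457 and Col2a1 at 2856, and in EC-iCD45KO these were 3160, 2487 and 957 CPM. Col2a1 fell by 1.58 on the log2 scale (-1.69 to -1.46). Col10a1, the collagen of hypertrophic cartilage, fell from 978 to 111 CPM (-3.14, -3.48 to -2.82). Col11a1, which nucleates cartilage fibrils with type II, fell from 222 to 9.82 CPM on 588 and 7 UMIs (-4.50, -5.82 to -3.45), while its partner Col11a2 was at 200 and 102 CPM (-0.96, -1.34 to -0.61). The 3 type IX chains, which coat type II fibrils, fell together: Col9a3 from 159 to 50.5 CPM (-1.65), Col9a2 from 48.7 to 4.21 CPM on 129 and 3 UMIs (-3.53, -5.83 to -1.95) and Col9a1 from 36.3 to 2.81 CPM on 96 and 2 UMIs (-3.69, -6.76 to -1.80).

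Not every chain of these cells was lower. Col3a1 was at 1114 and 1454 CPM (0.38, 0.28 to 0.49), and Col27a1, a fibril chain of cartilage, was at 260 and 230 CPM (-0.17, -0.43 to 0.07), within counting error. Type VI chains were lower, with Col6a1 at 528 and 320 CPM (-0.72), Col6a2 at 403 and 254 CPM (-0.67) and Col6a3, past the limit, at 284 and 142 CPM (-1.0). Col8a1 fell from 226 to 85.6 CPM (-1.40), as in EC-like cells, and Col12a1 from 64.6 to 32.3 CPM (-1.0). Col14a1 rose from 33.2 to 85.6 CPM (1.36, 0.87 to 1.85). Chains of low level also rose, on 18 to 29 UMIs per library, Col4a3 from 11.0 to 33.7 CPM, Col4a4 from 6.80 to 28.1 CPM and Col25a1 from 6.80 to 25.3 CPM. Col24a1 was at 35.5 and 54.7 CPM (0.62).

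Of 31 chains with 5 CPM in chondrocyte-like cells, 4 rose and 9 fell, with a median of -0.58. Over all genes of that level 8.36% rose and 6.21% fell, with a median of 0.01. The sum of all chains was 17220 and 10683 CPM (-0.69, -0.72 to -0.65). Ibsp, a bone and cartilage transcript and one of the genes that named the class, was at 22498 and 12139 CPM. The EC-iCD45KO class thus also had less of its own marker. Under the finer clustering only 41 EC-iCD45KO cells, at a median of 7862 UMIs, remained against 572 WT cells at 1655. There Ibsp differed by -0.17, Col2a1 by -0.78, Col1a1 by 0.16, Col11a2 by -0.18, Col6a3 by -0.57, Col12a1 by -0.38 (-1.13 to 0.29), Col14a1 by 0.40 and the sum by -0.24, whereas Col10a1 (-2.33), Col11a1 (-4.17), Col9a3 (-1.31) and Col8a1 (-1.19) were still past the limit. In the class as first drawn, 13 macrophage genes summed to 1548 and 5363 CPM, 7 monocyte and neutrophil genes to 18.1 and 205, 8 kidney tubule genes to 8.69 and 261, and 12 smooth muscle genes to 1221 and 431. The depth of cells and the mix of cells in the class moved with these values, and their part was not tested.

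Macrophage-like cells had little collagen RNA, and 1 chain stood out. Col14a1 was at 73.5 CPM in WT and 86.6 in EC-iCD45KO (0.24, 0.13 to 0.34) on 988 and 3233 UMIs. T and NK-like cells had 6.79 and 19.6 CPM and B-like cells 2.61 and 5.49 CPM. Within the class it was uneven: the cluster led by Zmynd15 and Myo16 had 155 and 204 CPM of Col14a1, the Ccl12 and Ccl8 cluster 74.9 and 106, the Apoc1 and Lyz1 cluster 51.5 and 60.1 and the Gpnmb and Mmp12 cluster 30.9 and 24.95. After thinning, 5.96% and 7.25% of macrophage-like cells had a Col14a1 UMI (17.5% and 17.6% without thinning, at median depths of 3229 and 2050 UMIs), against 0.225% and 0.323% of B-like cells.

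Most other chains of macrophage-like cells lay near lymphocyte levels. Col1a2 was at 19.4 and 19.6 CPM, against 22.5 and 23.2 in T and NK-like cells. Col3a1 was at 16.2 and 26.4 CPM against 18.9 and 33.0, and Col4a1 at 9.01 and 16.5 CPM against 8.38 and 16.9. These levels of Col1a2, Col3a1 and Col4a1 are at background and are not read as expression by macrophages. Col15a1 stood above the lymphocytes, at 11.9 CPM in WT and 12.97 in EC-iCD45KO (0.12, -0.14 to 0.39), against 3.03 and 2.67 CPM in T and NK-like and 2.00 and 6.59 in B-like cells. Of the 8 chains with 5 CPM, 0 rose and 0 fell, and the median was 0.46. Over all genes of that level 0.638% rose and 1.86% fell, with a median of -0.04. Less the mean lymphocyte level, the summed log2 ratio of 0.25 (0.19 to 0.31) became -0.20.

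Schwann-like cells of aortic nerves had a broad profile that includes chains low elsewhere, but WT held only 137 of them. Col1a2 was at 356 and 426 CPM, Col3a1 at 333 and 411, Col4a1 at 212 and 241 and Col18a1 at 163 and 181. Each of these differences was within counting error. Col28a1, a collagen of peripheral nerve, was at 79.5 and 56.4 CPM (-0.50, -1.22 to 0.29), against 11.7 and 11.5 CPM in EC-like cells and under 3 CPM in smooth muscle-like and fibroblast-like cells. The FACIT chain Col20a1 was at 94.7 and 52.9 CPM (-0.84), against 8.73 and 9.42 in fibroblast-like cells, and Col16a1 was at 98.5 and 54.7 CPM (-0.85). In cells of at least 3000 UMIs these 3 ratios became 0.27, -1.54 and -0.21.

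Of 27 chains with 5 CPM in Schwann-like cells, 2 rose and 7 fell, with a median of -0.10. Over all genes of that level 13.2% rose and 12.1% fell, with a median of -0.01. Col14a1 fell from 140 to 64.2 CPM (-1.13, -1.71 to -0.52) and Col15a1 from 90.9 to 41.7 CPM (-1.13, -1.86 to -0.35), on 37 and 74 and on 24 and 48 UMIs. Both calls ended under 1 alternative, at -0.69 for Col14a1 in cells of at least 3000 UMIs and at -0.94 for Col15a1 under the finer clustering. Col5a3 fell from 56.8 to 24.3 CPM (-1.23) and Col9a3 from 37.9 to 3.47 CPM on 10 and 4 UMIs. Col6a2 rose from 18.9 to 50.3 CPM on 5 and 58 UMIs. Col23a1 had 0 UMIs in WT and 15 in EC-iCD45KO, at least 1.15-fold higher against the floor of 3 UMIs, and it counts among the 2 that rose only because its WT count was 0. Col4a4, Col12a1 and Col24a1 made up the rest of the fallen chains on 3 to 9 UMIs per library, with intervals that include 0. Dcn, a fibroblast proteoglycan, was also lower in the EC-iCD45KO cells, at 1678 and 746 CPM. The summed levels of other marker lists also moved in Schwann-like cells, from 4669.9 to 229 CPM for 6 plasma cell genes, from 1356 to 56.4 for 7 B-cell genes, from 1045 to 10.4 for 8 kidney tubule genes and from 4973 to 14234 for 13 macrophage genes. The part of such RNA in these values was not tested.

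Set side by side over the classes in which they reach 5 CPM, the chains differed in how evenly they moved. Col4a1 and Col4a2 were each higher in EC-iCD45KO beyond counting error in 5 of 7 classes and lower in 0, with macrophage-like cells, where both were near lymphocyte levels, among the 5. Col18a1 was higher in 3 of 7, macrophage-like cells among them, and lower in 0. Col8a1 was lower in 3 of 6 and higher in 0. Col12a1 was lower in 3 of 5 classes. Col6a2 was higher in 4 and lower in 2 of 6 classes, and Col27a1 was within counting error in 5 of 5. The classes share their 2 libraries, so they are not independent repeats.

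The enzymes, chaperones, cross-linkers and receptors of the collagen pathway were followed as a list of 54 genes. In EC-like cells 46 reached 5 CPM, with a median of 0.16, of which 0 rose and 2 fell, against 1.56% and 3.65% of all genes of that level. The 2 were P4ha3, a prolyl hydroxylase subunit (17.1 to 6.50 CPM, -1.40), and Pcolce2, which aids propeptide removal (18.0 to 6.40 CPM, -1.49), both named after their values were seen. Of those with 50 CPM, Serpinh1, the collagen chaperone of the endoplasmic reticulum, was highest in ratio, at 230 and 414 CPM (0.85, 0.77 to 0.93). Pxdn, the peroxidase that cross-links type IV collagen, was at 52.9 and 88.0 CPM (0.73, 0.57 to 0.90), and Colgalt1, which adds galactose to hydroxylysine, at 41.1 and 65.3 CPM (0.67). The small proteoglycans were lowest, with Bgn at 494 and 256 CPM (-0.95), Lum at 116 and 72.7 CPM (-0.67) and Dcn at 311 and 238 CPM (-0.38). In EC-like cells Col4a1, Col4a2, Pxdn and Serpinh1 were thus higher in EC-iCD45KO, and Bgn, Lum and Dcn lower.

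In fibroblast-like cells 48 of the 54 genes reached 5 CPM, with a median of 0.35, of which 1 rose and 0 fell, against 1.73% and 4.53% of all genes. The 1 was Adamts3, a procollagen N-proteinase (9.73 to 22.5 CPM, 1.21), named after its value was seen. Plod2, a lysyl hydroxylase, was at 140 and 265 CPM (0.92, 0.78 to 1.06), Loxl1, a lysyl oxidase, at 120.0 and 199.96 CPM (0.74), and fibronectin, Fn1, at 275 and 426 CPM (0.63). Ogn, a small proteoglycan, was at 528 and 329 CPM (-0.68), Pcolce2 at 70.1 and 53.0 CPM (-0.40) and Fmod at 94.0 and 72.1 CPM (-0.38).

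In smooth muscle-like cells 47 reached 5 CPM, with a median of -0.03, and 2 rose and 3 fell, against 1.94% and 3.15% of all genes. Itga1, the alpha chain of a collagen-binding integrin that also binds type IV, rose from 48.5 to 98.3 CPM (1.02, 0.85 to 1.19). Lair1, a collagen receptor of leukocytes, rose from 8.80 to 18.6 CPM. Summed macrophage genes, given above, were higher in that class too, and their part in the Lair1 value was not tested. Those that fell were Pcolce2 (55.7 to 25.7 CPM), and the integrin alpha chains Itga10 (13.9 to 6.89 CPM) and Itga11 (12.9 to 5.83 CPM); all but Itga1 were named after their values were seen. Tgm2, a transglutaminase, was at 106 and 174 CPM (0.72) and Ogn at 270.4 and 419.9 CPM (0.63). Lum was at 3530.3 and 2347 CPM (-0.59), Dcn at 4963 and 3437 CPM (-0.53) and Pcolce, an enhancer of propeptide removal, at 239 and 168 CPM (-0.51). In modulated smooth muscle-like cells 50 reached 5 CPM (median 0.49), 6 rose and 1 fell, against 4.32% and 9.84% of all genes. Lox, a lysyl oxidase, rose from 52.0 to 107 CPM (1.04), and the 1 that fell was Itga11, from 8.70 to 3.93 CPM. Fn1 (1432 to 3284 CPM, 1.20) and Lum (1679.9 to 3614 CPM, 1.11) also rose there, and both are among the markers that named the class. Under the finer clustering Lum was at 5618 and 7149.9 CPM (0.35), within the limit. Among genes with 50 CPM the lowest ratios were those of Mia2 and Mia3, which help load collagen for export, at 98.4 and 70.7 CPM (-0.48) and at 80.6 and 71.5 CPM (-0.17), and of Ogn, at 73.2 and 65.2 CPM (-0.17).

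In chondrocyte-like cells 50 of the 54 reached 5 CPM (median -0.19), and 4 rose and 4 fell, against 8.36% and 6.21% of all genes. Loxl3, a lysyl oxidase, fell from 112 to 53.3 CPM (-1.07), and Sparc, a collagen-binding glycoprotein of bone, was at 27709 and 14001 CPM (-0.98). Itga10, the integrin chain of chondrocytes, fell from 60.4 to 19.6 CPM and Itga11 from 14.4 to 2.81 CPM, both named after their values were seen. Fmod, a marker of the class, was the fourth that fell, from 604 to 233 CPM (-1.37). The 4 that rose were Tll1, Tnxb, Ddr1 and Lair1, at 8.42 to 29.5 CPM in EC-iCD45KO. Among genes with 50 CPM the highest ratios were those of Tgm2, at 48.4 and 70.2 CPM (0.54), and of the collagen receptors Ddr2, at 47.6 and 63.1 CPM (0.41), and Mrc2, at 49.1 and 63.1 CPM (0.36). In macrophage-like cells 26 reached 5 CPM (median 0.05), 2 rose and 1 fell, against 0.638% and 1.86% of all genes. Fn1 rose from 189 to 409 CPM (1.11, 1.05 to 1.17) and Itga1 from 3.72 to 10.3 CPM, and P3h2, a prolyl hydroxylase, fell from 9.75 to 4.47 CPM. Tgm2 was at 95.1 and 145 CPM (0.61) and Colgalt1 at 61.0 and 89.8 CPM (0.56), while Dcn was at 74.2 and 58.3 CPM (-0.35), Ppib at 494 and 461 CPM (-0.098) and Mia3 at 68.1 and 64.5 CPM (-0.079). In Schwann-like cells 46 reached 5 CPM (median 0.15), and 6 rose and 8 fell, against 13.2% and 12.1% of all genes. Tgm2 rose there from 45.4 to 123 CPM (1.44), and Bmp1, a procollagen C-proteinase, fell from 75.7 to 30.4 CPM (-1.32). Itga1 fell from 216 to 102 CPM (-1.09), and Dcn, given above, fell with it (-1.17). Fn1 was at 716 and 1284 CPM (0.84) and P4hb, a subunit of prolyl hydroxylase, at 133 and 234 CPM (0.82).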

How the data were processed

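The measurement was single-cell RNA-seq of mouse aortic cells bound to CD31 beads, in 2 libraries. The deposited matrices hold whole-number UMI counts per gene and barcode, per the file headers. Cell Ranger 7.1.0 and mm10 are named in the submitters' processing notes, and the annotation, intron and strand counting and cell calling are not given in the sources used here. Cells entered with 300 or more genes and a mitochondrial share of at most 10%, 39503 of 39849 WT and 28960 of 30278 EC-iCD45KO barcodes. Scrublet's own threshold marked 6 and 1 cells and had not worked, so in each library the top 10% by score was removed, leaving 35553 and 26064. Joint Leiden clustering (resolution 1, 47 clusters, no batch correction) used 20 neighbours in 30 principal components of 2000 variable genes, with collagen genes, Ptprc and mitochondrial genes left out. A cluster was named from marker lists of 20 classes when its mean log2 marker excess was at least 1, its lead over the next class 0.75, with 3 detected markers and 50 cells. These naming thresholds were set after seeing the data.

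UMIs were summed per class and library and divided by all UMIs of the class (CPM). No p-value was computed. Levels carry exact Poisson, shares Clopper-Pearson and log2 ratios conditional binomial 95% intervals, and 0 counts a floor of 3 UMIs. UMIs are molecules, but cells of 1 library are not replicates. Chains with 50 CPM (mean of the libraries) in any class, or past 2-fold in one, are given by value in at least 1 class, and of the pathway list the 3 highest and 3 lowest ratios among genes with 50 CPM. The members and lists were chosen with earlier results of these data known. The fold rule was run on simulated counts with changes larger than its limit and counting error only. That run does not cover changes near the limit or differences between preparations.

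The alternatives were a stricter filter (500 genes, 5% mitochondrial UMIs), no doublet removal, resolution 2 (63 clusters), TMM factors, means of single-cell CPM, subtraction of lymphocyte CPM, no minimum with 0.5 CPM added, and thinning to 2000 UMIs or not at all. Cells of at least 3000 UMIs and equal cluster weights were added, chosen after seeing the data. Of 32285 gene identifiers 32235 matched GENCODE M21, and 35 of 44 chains had a RefSeq promoter entry. Protein sequences are not shown. Values of 1 macrophage-like cluster are not reported here. Tools were scanpy 1.11.5, scikit-learn 1.9.0, leidenalg 0.10.2, scipy 1.17.1, Python 3.11.15, pandas 2.3.3, numpy 2.4.6, matplotlib 3.10.9, and edgeR 4.0.16 in R 4.3.3 for TMM factors.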

Additional observations from a re-analysis of the deposited data

Results flagged for a closer look

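Col14a1, a FACIT chain, moved in opposite directions in 2 classes: its log2 ratio, EC-iCD45KO over WT, was 1.36 in chondrocyte-like cells and -1.13 in Schwann-like cells. Col15a1, a multiplexin of basement membrane zones, had 1.16 in EC-like and -1.13 in Schwann-like cells. Col6a3, a chain of the type VI trimer, had 1.32 in modulated smooth muscle-like and -1.0 in chondrocyte-like cells. In all 3 cases the difference between the classes was not tested, since each class has 1 library per group, and under the finer clustering at least 1 side of each pair was within 2-fold: it gave 0.40 (-0.42 to 1.15) for Col14a1 in chondrocyte-like cells, -0.94 (-1.68 to -0.17) for Col15a1 in Schwann-like cells, which was also just within the limit in EC-like cells, and -0.02 in modulated smooth muscle-like and -0.57 in chondrocyte-like cells for Col6a3.

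The cells in clusters that matched no class are outside every comparison above. Collagen chains made up 0.387% of their UMIs in EC-iCD45KO (0.381 to 0.393) against 0.117% in WT. Their Col3a1 level was 946 CPM in EC-iCD45KO and 182 in WT. These cells were not 1 class, and the clusters among them differed between the libraries: 1 held 1920 WT and 0 EC-iCD45KO cells, another 3172 and 249, and another 72 and 722.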

How the results depend on the processing

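No paired analysis was possible because there was 1 library per group. Directions of the summed collagen ratio (log2, EC-iCD45KO over WT) held under the alternatives in EC-like, modulated smooth muscle-like, chondrocyte-like and fibroblast-like cells, and the causes of the shifts were not tested. It reversed in smooth muscle-like cells, to 0.093 at Leiden resolution 2, 0.055 with TMM factors, 0.037 with equal cluster weights and 0.13 as a mean of single-cell CPM. It reversed in Schwann-like cells, to 0.059 with TMM factors and 0.22 in cells of at least 3000 UMIs, and in macrophage-like cells, to -0.20 after lymphocyte subtraction. Col6a3 in modulated smooth muscle-like cells reversed to -0.020 at resolution 2. The stricter cell filter gave sums of 0.87 in modulated smooth muscle-like, -0.61 in chondrocyte-like, 0.87 in fibroblast-like and 0.18 in macrophage-like cells. No doublet removal gave 0.73 in modulated smooth muscle-like and 0.83 in fibroblast-like cells, and 0.41 with 2 chains past 2-fold in macrophage-like cells. Resolution 2 gave sums of 0.22 in EC-like, 0.29 in modulated smooth muscle-like, -0.24 in chondrocyte-like, 0.82 in fibroblast-like and 0.32 in macrophage-like cells, and 0, 2 and 1 chains past 2-fold in smooth muscle-like, modulated smooth muscle-like and macrophage-like cells. Cells of at least 3000 UMIs, an alternative chosen after seeing the data, gave -0.10 in smooth muscle-like, 0.86 in modulated smooth muscle-like, -0.65 in chondrocyte-like and 0.63 in fibroblast-like cells, and 9 and 2 chains past 2-fold in EC-like and smooth muscle-like cells. Equal cluster weights, also chosen after seeing the data, gave 0.71 in fibroblast-like cells and 0 chains past 2-fold in smooth muscle-like cells. TMM factors gave 0.36 in EC-like, -0.76 in chondrocyte-like and 0.93 in fibroblast-like cells. Means of single-cell CPM gave 0.25 in EC-like, 0.71 in modulated smooth muscle-like, -0.58 in chondrocyte-like, 0.82 in fibroblast-like, 0.38 in macrophage-like and -0.32 in Schwann-like cells. With no minimum and 0.5 CPM added, the chains past 2-fold were 7 in EC-like, 9 in smooth muscle-like, 17 in modulated smooth muscle-like, 21 in chondrocyte-like, 5 in fibroblast-like, 3 in macrophage-like and 14 in Schwann-like cells. Of 92 single-chain values at 50 CPM or more, 18 were past 2-fold, and 5 of those under each of the 5 or 6 alternatives run for single chains: Col8a1 in EC-like cells and Col8a1, Col9a3, Col10a1 and Col11a1 in chondrocyte-like cells. For the counts of chains past 2-fold in this section, the share of all genes under the same rule is not given here. Those counts are therefore not read as results about the chains. Of 513 alternative values of single results, 128 lay outside the counting interval. Chains within 2-fold could change sign, as in modulated smooth muscle-like cells at resolution 2, where Col4a6 went from 0.50 to -0.60 and Col4a5 from 0.29 to -0.46. Depth limits the chains with few UMIs, above all in WT Schwann-like and EC-iCD45KO chondrocyte-like cells.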

Other observations

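An unnamed cluster, led by Timp1, Ptx3, Il6 and Grem1, held 1 WT cell and 70 EC-iCD45KO cells. It was nearest to the modulated smooth muscle list and then to the smooth muscle list. Collagen chains made up 1.32% of the UMIs of its EC-iCD45KO cells. In EC-iCD45KO that share was 0.593% in modulated smooth muscle-like, 0.513% in smooth muscle-like and 1.36% in fibroblast-like cells.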
